A study of Mus musculus with 5 samples.

Results

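The insulin signaling cascade was followed through 9 transcripts in mouse tibialis anterior (TA) muscle, namely Insr, Irs1, Irs2, Pik3r1, Pik3ca, Akt1, Akt2, Gsk3b and Grb10. The members were found by gene name in a table of 17015 genes, each name matched 1 row, and all 9 passed the minimum mean of 0.5 FPKM (fragments per kilobase, adjusted for library size) that 12148 genes passed. The libraries came from sedentary male mice 8 weeks of age, bred from C57BL/6J Nrip1 fl/fl mice and C57BL/6JN mice carrying Cre, with 3 libraries from WT control mice, which are Cre-negative littermates of the Nrip1 fl/fl line, and 2 labelled skmNrip1-/-, where Cre driven by the myogenin promoter removes the floxed Nrip1 gene. Values are given in the order of the replicate numbers. The corepressor RIP140 is the product of Nrip1. Myogenin is expressed in differentiating muscle cells, so the other cells of the muscle are not targeted. The labels name no treatment with insulin, and the measurements are of RNA, not of protein or phosphorylation.

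Insulin binds a receptor tyrosine kinase on the muscle fiber, and the receptor phosphorylates insulin receptor substrate (IRS) proteins. These recruit phosphatidylinositol 3-kinase (PI3K), whose lipid product brings AKT kinases to the membrane, where they are activated. AKT then inactivates glycogen synthase kinase and the RAB GTPase-activating protein TBC1D4, which leads to glycogen synthesis and to movement of the glucose transporter GLUT4 to the surface. Skeletal muscle is the main site of insulin-stimulated glucose uptake, and most of the control in this cascade is exerted on the proteins.

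None of the 9 transcripts was called different between the groups. In the libraries labelled skmNrip1-/-, the receptor transcript Insr was 1.26 times the WT control mean, Irs1 was 0.756 times and the adaptor Grb10 0.826 times, and Akt2, the most abundant member, was 0.99 times. Calls required a fold change of at least 1.2 together with an adjusted p no larger than 0.05 (limma on log2(FPKM + 0.1), Benjamini-Hochberg over all 12148 genes). Of all tested genes 0.453% were called, 0.37% higher and 0.0823% lower. Without adjustment, no member had a p of 0.05 or less, whereas 11.9% of all tested genes did. Members above and below the WT control level were 3 and 6 (2 and 7 after rescaling each library to the same total, as TPM), with a median log2 fold change of -0.08, against -0.00054 over all tested genes.

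The FPKM of the targeted gene Nrip1 was 4.64, 7.69 and 6.55 in WT control TA and 25.3 and 22.5 in the libraries labelled skmNrip1-/-. This rise runs against the label of a knockout, so the libraries are named by their labels and each direction rests on them. The loxP sites flank the last exon, which holds the coding sequence, and a value per gene does not separate the exons. The paper describes this mouse line as RIP140-deficient in skeletal muscle, and measured its Nrip1 expression and RIP140 protein in gastrocnemius and heart. It also compared Nrip1 by qPCR between WT and knockout mice of this line, with no tissue named in the legend. The cause of the rise in these TA libraries was not tested. The rise amounted to 1.94 on the log2 scale, with a standard error of 0.21 and an adjusted p of 0.0261 from limma. The call was lost without WT control replicate 3 (adjusted p = 0.114) and without replicate 1 or 2 labelled skmNrip1-/- (adjusted p = 0.189 and 0.143). Acta1, Ckm and Myh4, from the list of mature fast muscle markers, were at 6416 FPKM or more in every library. Actn3, the least abundant of that list, was at 2701 to 3558 FPKM in WT control TA and at 1739 and 1744 in the libraries labelled skmNrip1-/-. The files give no read totals. Low values of genes with a single transcript lie on steps, taken here as 1 fragment each, whose size gives a depth of 0.835 to 1.11 relative to WT control replicate 1. On that estimate, the lowest member value, that of Irs2 in WT control replicate 1, corresponds to about 580 fragments, or a counting error of about 4.15%.

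WT control replicate 1 was the lowest of the WT control libraries for 7 of the 9 members, and so for 36.6% of all tested genes. The median log2 difference of this library from the mean of the other WT control libraries was -0.33 over the members, from -0.62 for Irs2 to 0.02 for Akt2, and 0.01 over all tested genes with a GENCODE match. It moved with transcript length, with a median of 0.16 over 4046 genes of up to 2434 bases, -0.0026 over 4047 genes of 2436 to 4159 bases and -0.12 over 4045 genes of 4162 bases or more. The longest transcripts of 8 members, all except Akt1, fall in that last range, from 4544 bases for Akt2 to 9355 for Insr. Over the same ranges, from shortest to longest, the median log2 fold change between the groups was -0.037, 0.0058 and 0.025. The part of transcript length in the differences of the members between the groups was not tested.

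The members spanned a wide range of levels. Akt2, whose product is the AKT isoform most tied to glucose uptake in muscle, was at 102 ± 3.39 FPKM (SD, n = 3) in WT control TA. Akt1 followed at 28.2 ± 1.34, then Insr at 8.29 ± 1.31, Gsk3b at 7.22 ± 0.929, Pik3r1 at 6.56 ± 1.24 and Pik3ca at 6.27 ± 0.327 (SD, n = 3). The lowest were Grb10 at 4.48 ± 0.27, Irs1 at 3.83 ± 0.941 and Irs2 at 2.96 ± 0.77 (SD, n = 3). Akt2 stood at percentile 94.7 of the tested genes by mean WT control FPKM, and Irs2 at percentile 33.9. Akt2 above Akt1, Akt1 above Insr, and Pik3ca above Grb10 were the neighbors in this order whose WT control libraries did not overlap. The ranges of Insr, Gsk3b, Pik3r1 and Pik3ca overlapped from each to the next, as did those of Grb10, Irs1 and Irs2, although Insr was above Gsk3b within all 5 libraries.

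**Figure D1:**
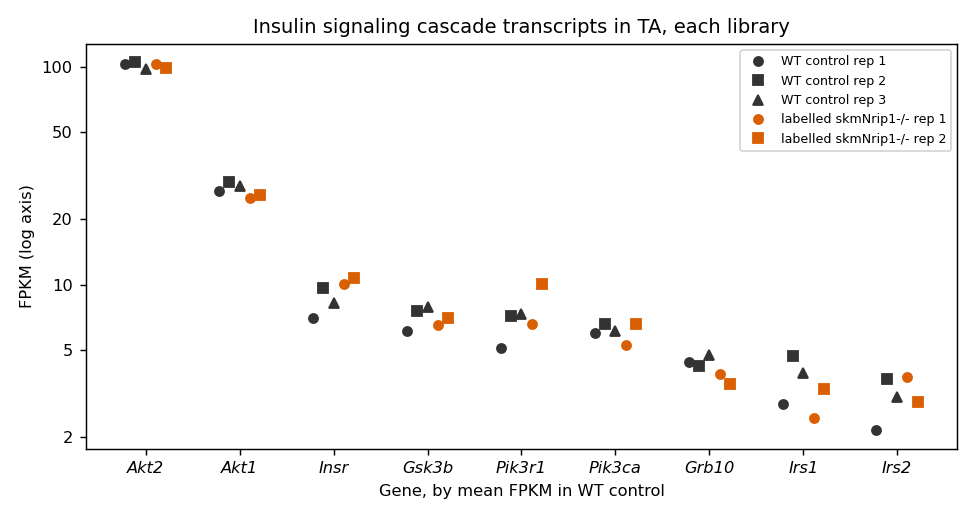
FPKM of the 9 transcripts on a log axis, with one point per library, WT control in black and the libraries labelled skmNrip1-/- in orange. Akt2 lies near 100 and Irs2 between 2.15 and 3.79, and the 2 groups are mixed for most genes.

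Several members have close relatives, and the deposited value of each depends on how reads were divided between them. In the GENCODE M21 transcripts (GRCm38), the longest stretch of identical bases shared by the longest coding transcripts was 32 bases for Akt1 and Akt2, 21 for Irs1 and Irs2, 17 for Gsk3b and Gsk3a, and 16 for Grb10 and Grb14. All are shorter than a 150-base read. Of the 31-base words of Akt1, 3 of 2660 occur in Akt2, and none of those of Irs1, Gsk3b or Grb10 occur in the relative named. Insr and Igf1r share 43 bases outside their coding sequences, and 16 of 9325 words. The windows around the shared stretch of the IRS, GSK3 and GRB pairs are shown because the comparisons of isoforms rest on telling these transcripts apart. Capitals mark the bases shared without interruption, in coding sequence, and lower case marks the flanks.
Irs1: agaaCTTCTTCTTCATCGAGGTGGGgcgt
Irs2: acagCTTCTTCTTCATCGAGGTGGGccgt
Gsk3b: tttggaAGTGCAAAGCAGCTGGTccgagg
Gsk3a: tttggcAGTGCAAAGCAGCTGGTtcgggg
Grb10: ggtcgacTTCTACCAGCTCAACAaaggtgt
Grb14: ggtggagTTCTACCAGCTCAACAggggggt
The Irs1 window lies in exon 1 on the minus strand at chr1:82289828-82289856, and that of Irs2 in exon 1 on the minus strand at chr8:11007657-11007685. The Gsk3b and Gsk3a windows each span the junction of exons 5 and 6, on chromosomes 16 and 7, and those of Grb10 and Grb14 lie in the last exon of each. Exons of Irs1 and Irs2 overlap exons of genes on the opposite strand, Gm9747 and 9530052E02Rik, and the library kit named in the labels is not stated to keep strand.

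Insr encodes the insulin receptor (ENSMUSG00000005534, chromosome 8, 3122061 to 3279617 on GRCm38, minus strand). Its FPKM was 7.01, 9.63 and 8.22 in WT control TA and 10.04 and 10.8 in the libraries labelled skmNrip1-/-. Both of the latter were above every WT control library, as was the case for 15.8% of all tested genes. The log2 fold change was 0.34 (standard error 0.15, 95% interval -0.03 to 0.70, adjusted p = 0.464 from limma). Without WT control replicate 1, the lowest library, it was 0.22, and without WT control replicate 2 it was 0.45. The related receptor Igf1r, which binds insulin-like growth factors, was at 1.56, 1.55 and 1.63 FPKM in WT control TA and 1.58 and 1.68 in the libraries labelled skmNrip1-/-, with groups that overlapped (log2 fold change 0.04).

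Irs1 and Irs2 encode the docking proteins that carry the signal from the receptor to PI3K. Irs1 (ENSMUSG00000055980, chromosome 1, 82233101 to 82291416, minus strand) was at 2.83, 4.70 and 3.95 FPKM in WT control TA and at 2.46 and 3.33 in the libraries labelled skmNrip1-/-. The groups overlapped through WT control replicate 1. The log2 fold change of Irs1 was -0.38 (standard error 0.24, 95% interval -0.96 to 0.20, adjusted p = 0.61 from limma), and with each library left out in turn it ranged from -0.59 to -0.17. It was largest without replicate 2 and smallest without replicate 1 labelled skmNrip1-/-. Irs2 (ENSMUSG00000038894, chromosome 8, 10984681 to 11008458, minus strand) was at 2.15, 3.68 and 3.05 FPKM in WT control TA and at 3.79 and 2.91 in the libraries labelled skmNrip1-/-. These groups also overlapped, and the log2 fold change was 0.19 (standard error 0.25, 95% interval -0.39 to 0.78, adjusted p = 0.822 from limma). Without WT control replicate 1 it was -0.01.

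Pik3r1 and Pik3ca encode a regulatory and a catalytic subunit of PI3K. Pik3r1 (ENSMUSG00000041417, chromosome 13, 101680563 to 101768217, minus strand) had 5.13, 7.16 and 7.38 FPKM in WT control TA and 6.63 and 10.1 in the libraries labelled skmNrip1-/-. The high value of Pik3r1 in 1 library set the size of the difference. The log2 fold change was 0.33 (standard error 0.23, 95% interval -0.22 to 0.89, adjusted p = 0.647 from limma), 0.64 without replicate 1 labelled skmNrip1-/- and 0.03 without replicate 2. Pik3ca (ENSMUSG00000027665, chromosome 3, 32397671 to 32468486, plus strand) was at 6.01, 6.63 and 6.16 FPKM in WT control TA and at 5.30 and 6.60 in the libraries labelled skmNrip1-/-. For Pik3ca, this gave a log2 fold change of -0.08 (standard error 0.14, 95% interval -0.41 to 0.25, adjusted p = 0.874 from limma), with groups that overlapped.

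Akt1 and Akt2 gave the narrowest intervals of the 9. The FPKM of Akt1 (ENSMUSG00000001729, chromosome 12, 112653821 to 112674884, minus strand), the broadly expressed AKT isoform, was 26.8, 29.5 and 28.2 in WT control TA and 25.0 and 25.9 in the libraries labelled skmNrip1-/-. Both were below every WT control library, as in 14.4% of all tested genes, by a log2 fold change of -0.14 (standard error 0.10, 95% interval -0.38 to 0.09, adjusted p = 0.646 from limma). Akt2 (ENSMUSG00000004056, chromosome 7, 27591552 to 27640826, plus strand) was at 103, 105 and 98.2 FPKM in WT control TA and at 103 and 98.7 in the libraries labelled skmNrip1-/-. The Akt2 difference was -0.01 on the log2 scale (limma, standard error 0.10 and adjusted p = 0.977), and its 95% interval spans 0.844 to 1.16 times the WT control level.

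Gsk3b encodes a kinase that phosphorylates and inhibits glycogen synthase until AKT inactivates it. Gsk3b (ENSMUSG00000022812, chromosome 16, 38089001 to 38246084, plus strand) was at 6.16, 7.61 and 7.90 FPKM in WT control TA and at 6.51 and 7.06 in the libraries labelled skmNrip1-/-, inside the WT control range. The log2 fold change was -0.08 (standard error 0.14, 95% interval -0.43 to 0.26, adjusted p = 0.879 from limma). The paralog Gsk3a was more abundant, at 47.0 ± 1.78 FPKM (SD, n = 3) in WT control TA, compared with 41.8 ± 1.4 (SD, n = 2) in TA labelled skmNrip1-/- (log2 fold change -0.17, adjusted p = 0.569 from limma).

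Grb10 encodes an adaptor that binds the activated receptor and inhibits it. Grb10 (ENSMUSG00000020176, chromosome 11, 11930508 to 12038683, minus strand) was at 4.43, 4.23 and 4.77 FPKM in WT control TA and at 3.90 and 3.49 in the libraries labelled skmNrip1-/-. The groups did not overlap. The log2 fold change of Grb10 was -0.27 (standard error 0.13, 95% interval -0.57 to 0.03, adjusted p = 0.477 from limma), and with any 1 library left out it ranged from -0.35 to -0.19. Of the 9 members, 1 was higher and 2 were lower with groups that did not overlap, and over all tested genes the shares were 15.8% and 14.4%, or 30.2% in either direction.

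**Figure D2:**
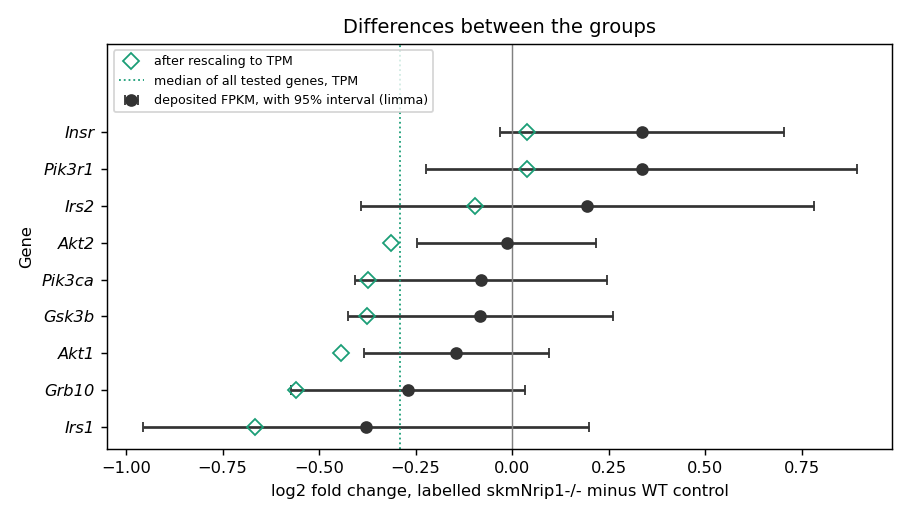
Log2 fold change of each transcript in the libraries labelled skmNrip1-/- minus WT control, with 95% intervals from limma (black) and the same difference after rescaling to TPM (open diamonds). Every black interval includes 0, and rescaling shifts all 9 values down together by about the median of all tested genes, -0.29.

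The scaling of the libraries bears on the sign of some members. Transcripts encoded by mtDNA took 45.4% to 50.7% of the FPKM sum in WT control TA and 58.6% and 60.9% in the libraries labelled skmNrip1-/-. A change of scale to TPM, in which each library sums to the same total, lowered the median difference over all tested genes to -0.29 (log2). On the TPM scale, Irs2 turned to -0.10 (as Igf1r turned to -0.24), Insr and Pik3r1 were both at 0.04, and the other members were between -0.67 and -0.31. Rescaling shifts all genes by about the same amount, so positions relative to that median stay as they were. Insr, Pik3r1 and Irs2 were above it and the other 6 below. After rescaling, 4 members (Irs1, Akt1, Akt2 and Grb10) had an unadjusted p of 0.05 or less, all lower, as 29.1% of all tested genes were on that scale, and none was called.

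Ratios of 2 genes within a library do not depend on a scaling common to all genes. A trend with transcript length, as in WT control replicate 1, need not cancel in them. The longest coding transcript has 8303 bases for Gsk3b and 2260 for Gsk3a. The part of transcript length in the ratios was not tested. The ratio of Irs1 to Irs2 was 1.32, 1.28 and 1.29 in WT control TA and 0.648 and 1.14 in the libraries labelled skmNrip1-/-. The WT control libraries lay close together and both others were lower, with most of the difference in 1 library. The log2 difference was -0.59, or -0.18 without replicate 1 labelled skmNrip1-/-. Pik3r1 to Pik3ca was 0.854, 1.08 and 1.199 in WT control TA and 1.25 and 1.53 in the libraries labelled skmNrip1-/-, again without overlap. Insr to Igf1r was 4.49, 6.23 and 5.04 against 6.37 and 6.40, with WT control replicate 2 close to both. Akt2 to Akt1 (3.48 to 3.84 against 3.81 and 4.13) overlapped between the groups. So did Gsk3b to Gsk3a (0.126, 0.168 and 0.169 against 0.152 and 0.173). An exact two-sided permutation test of 2 libraries against 3 has 10 splits and cannot go below p = 0.2. The 3 ratios without overlap reached that p (0.333 adjusted over the 5 ratios), and Akt2 to Akt1 and Gsk3b to Gsk3a had exact p = 0.4 and 0.8. Lack of overlap alone fixes the permutation p at 0.2, so it adds nothing to the separation seen. Of single tested genes, 30.2% were without overlap in either direction, and the share among ratios of 2 genes was not computed.

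**Figure D3:**
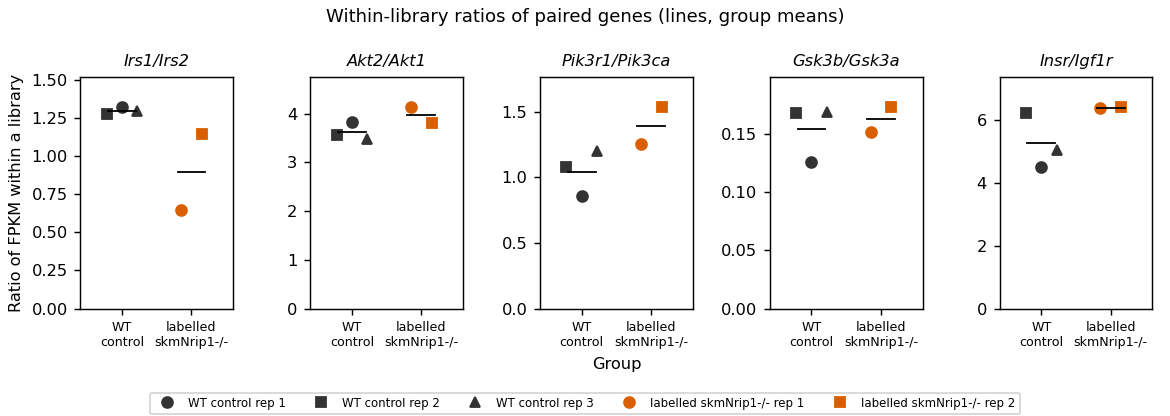
Ratio of the FPKM of 2 genes within each library, with axes starting at 0, for 5 pairs, with WT control in black, the libraries labelled skmNrip1-/- in orange and lines at the group means. The Irs1 to Irs2 ratio lies between 1.28 and 1.32 in WT control TA and at 0.648 and 1.14 in the other libraries.

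The genes around the cascade were read from 9 lists by role, which together name 96 genes, members included, and 88 were tested. Of these, none was called. By unadjusted p (0.05 or less), 6 were higher and 5 lower, and over all tested genes 6.57% were higher and 5.33% lower. On the TPM scale the same counts were 3 and 28, with 1.33% and 29.1% of all tested genes. The median log2 fold change was 0.002, with 44 genes above 0 and 44 below, or 11 and 77 on the TPM scale. The groups did not overlap for 15 genes that were higher and 15 that were lower, where 15.8% and 14.4% of all tested genes were so placed.

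The inhibitors that act at the receptor held 3 of the 6 genes that were higher by unadjusted p. Over all tested genes, 6.57% were higher by that rule. Of 9 tested genes of this list, 6 were above 0 and 3 below, with a median of 0.20. That median was -0.06 on the TPM scale, was 0.10 with a pseudocount of 1, 0.08 with no minimum level and 0.12 with a minimum of 1 FPKM, and was 0.05 without replicate 1 labelled skmNrip1-/-. Grb14 (ENSMUSG00000026888, chromosome 2, 64912476 to 65024987 on GRCm38) encodes an adaptor of the same family as Grb10 that also inhibits the insulin receptor. Its FPKM was 16.7, 25.9 and 19.8 in WT control TA and 48.6 and 41.1 in the libraries labelled skmNrip1-/-. The libraries labelled skmNrip1-/- were 2.16 times the WT control mean, with a log2 fold change of 1.12 (standard error 0.20, 95% interval 0.66 to 1.59) that missed the threshold (adjusted p = 0.0999 from limma) and was called only without WT control replicate 2 among the libraries left out in turn (adjusted p = 0.0405). The share of Grb10 in the summed FPKM of Grb7, Grb10 and Grb14 was 18.0% ± 3.59 (SD, n = 3) in WT control TA, compared with 7.6% ± 0.308 (SD, n = 2) in TA labelled skmNrip1-/-. Ptpn1, a tyrosine phosphatase that dephosphorylates the receptor, was at 11.9, 13.3 and 14.2 FPKM in WT control TA and at 16.0 and 17.2 in the libraries labelled skmNrip1-/- (log2 fold change 0.34, adjusted p = 0.344 from limma). The related phosphatase Ptpn2 had a log2 fold change of 0.41 (adjusted p = 0.379), and the lowest of the list was Dok1 at -0.35 (adjusted p = 0.668). On the TPM scale the log2 fold change was 0.82 for Grb14, 0.04 for Ptpn1, 0.12 for Ptpn2 and -0.62 for Dok1.

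The receptors and adaptors list had a median of 0.09 over 12 tested genes, with Insr the highest and Irs1 the lowest, and no gene at an unadjusted p of 0.05 or less. The PI3K subunits had a median of -0.01 over 8 tested genes. Pik3c2a, a PI3K of another class, was at 1.79, 1.71 and 1.63 FPKM in WT control TA and at 2.18 and 2.36 in the libraries labelled skmNrip1-/- (log2 fold change 0.39, adjusted p = 0.381 from limma). The regulatory subunit Pik3r3 was the lowest of the list at -0.58 (adjusted p = 0.571), and was at -0.15 without replicate 1 and -0.996 without replicate 2 labelled skmNrip1-/-. The share of Pik3r1 in the summed FPKM of Pik3r1, Pik3r2 and Pik3r3 was 50.5% ± 2.64 (SD, n = 3) in WT control TA. In TA labelled skmNrip1-/- it was 62.9% ± 3.7 (SD, n = 2), and this share was not tested. In replicate 1 labelled skmNrip1-/-, Pik3r1 itself was inside the WT control range (6.63 FPKM). Pik3r2 and Pik3r3 were below theirs in that library (3.22 and 1.16 FPKM). The phosphatases that oppose PI3K and AKT spanned a narrow range, from -0.20 for Ppp2r5b to 0.28 for Inpp4b (-0.004 on the TPM scale) over 9 tested genes.

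Among AKT and its activating kinases, 9 genes had a median of 0.02 and ranged from -0.17 for Mlst8 to 0.66 for Deptor. Deptor encodes an inhibitory partner of the kinase mTOR. Its FPKM was 6.23, 7.04 and 6.37 in WT control TA and 10.02 and 10.8 in the libraries labelled skmNrip1-/-. Both were well above the WT control range. The log2 fold change was 0.66 (standard error 0.11, 95% interval 0.39 to 0.94, adjusted p = 0.0999 from limma). On the TPM scale it was 0.36. Exons of Deptor overlap those of Gm9920 on the opposite strand.

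The AKT substrates and the mTORC1 branch had a median of -0.06 over 16 tested genes, 4 above 0 and 12 below. They held the gene with the largest log2 fold change of the lists around the cascade. Tbc1d4 (ENSMUSG00000033083, chromosome 14, 101442360 to 101609191) encodes the AKT substrate also known as AS160, which retains GLUT4 inside the cell until it is phosphorylated. It was at 2.30, 5.10 and 3.18 FPKM in WT control TA and at 9.52 and 9.07 in the libraries labelled skmNrip1-/-. The libraries labelled skmNrip1-/- were alike and the WT control libraries were spread, and the log2 fold change was 1.45 (standard error 0.30, 95% interval 0.72 to 2.17, adjusted p = 0.152 from limma), called only without WT control replicate 2 among the libraries left out in turn (adjusted p = 0.0383). Bad, a pro-apoptotic protein that AKT phosphorylates, was at 9.22, 7.79 and 9.62 FPKM in WT control TA and at 6.28 and 6.15 in the libraries labelled skmNrip1-/- (log2 fold change -0.50, adjusted p = 0.231 from limma). Exons of Bad overlap those of Gpr137 on the opposite strand.

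**Figure D4:**
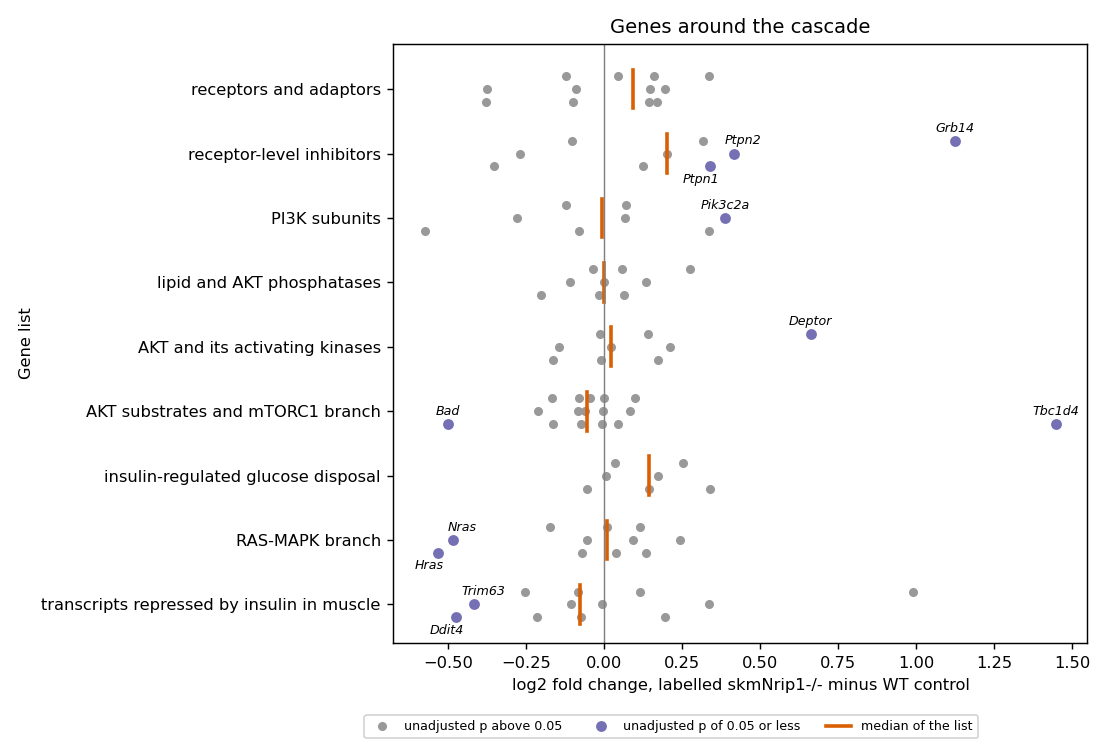
Log2 fold change of each tested gene of the 9 lists in the libraries labelled skmNrip1-/- minus WT control, with genes at an unadjusted p of 0.05 or less in purple and the median of each list as an orange line. Grb14, Deptor and Tbc1d4 lie farthest to the right of these, at 1.12, 0.66 and 1.45, and the list medians lie between -0.08 and 0.20.

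The genes of glucose disposal had a median of 0.14 over 7 genes, 6 above 0, and on the TPM scale a median of -0.16 with 1 above 0, Ppp1r3a. Without WT control replicate 3 the median was 0.07. The values ranged from -0.05 for Slc2a4, which encodes GLUT4, to 0.34 for Ppp1r3a, a glycogen-targeting phosphatase subunit, and none had an unadjusted p of 0.05 or less. The RAS-MAPK branch, the mitogenic arm of insulin signaling, had a median of 0.01 over 11 genes, 6 above 0 and 5 below. Its lowest gene, Hras, was at 62.7, 41.5 and 51.2 FPKM in WT control TA and at 35.6 and 34.9 in the libraries labelled skmNrip1-/- (log2 fold change -0.53, adjusted p = 0.314 from limma). Nras, another RAS gene, had a log2 fold change of -0.49 (adjusted p = 0.329).

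The last list held 12 genes set down as repressed by insulin or by AKT through FOXO factors. Their response to insulin was not measured here. The list had a median of -0.08, with 4 genes above 0 and 8 below. Pdk4, a kinase that restrains pyruvate oxidation, was at 78.2, 255 and 185 FPKM in WT control TA and at 272 and 345 in the libraries labelled skmNrip1-/- (log2 fold change 0.99, adjusted p = 0.474 from limma). Without WT control replicate 1, its lowest library, the log2 fold change of Pdk4 was 0.50. The ubiquitin ligase gene Trim63 was at 138, 130 and 139 FPKM in WT control TA and 103 and 99.6 in the libraries labelled skmNrip1-/- (log2 fold change -0.42, adjusted p = 0.191). Ddit4, an inhibitor of mTORC1 signaling, had a log2 fold change of -0.48 (adjusted p = 0.308).

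The genes with profiles most like those of single members over the 5 libraries were found by the distance of centered log2 values, for the 3 members with the smallest p. For Insr they were Fbxo21, Qk and Txlng, at distances of 0.041 to 0.06. Grb10 was nearest to Ppp1r13l, Cdh13 and Cndp2 (0.067 to 0.071), and Irs1 to Nepro, Gm21992 and Tle3 (0.18 to 0.20).

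TA is a mixture of cells, and in bulk RNA fewer cells of a type and less RNA per cell cannot be told apart. Summed over 6 adipocyte markers, of which Retn and Lep were below the minimum level, the values were 8.18 to 14.9 FPKM in WT control TA and 12.8 and 12.9 in the libraries labelled skmNrip1-/-. Over 5 endothelial markers they were 73.1 to 83.3 against 68.7 and 77.2, and over 5 fibroblast markers 161 to 233 against 189 and 256. Macrophage markers summed to 4.59 to 10.5 against 7.70 and 6.79, Schwann cell markers to 26.9 to 40.0 against 34.1 and 24.2, satellite cell markers to 3.92 to 5.48 against 3.68 and 7.13, and smooth muscle markers to 114 to 131 against 118 and 127. None of the tested markers of these cell types had an unadjusted p of 0.05 or less. All 5 blood markers were above 0, 3 of them at an unadjusted p of 0.05 or less, with sums of 511 to 764 FPKM in WT control TA and 996 and 827 in the libraries labelled skmNrip1-/-. All 7 markers of mature fast muscle were below 0, with a median of -0.29 and Actn3 the lowest at -0.77, and their sums were 69624 to 97676 against 65916 and 63803. The 7 slow fiber markers had a median of 0.003, with 1 higher and 1 lower at an unadjusted p of 0.05 or less. The higher one, Myl2, had 2.03, 1.85 and 9.68 FPKM in WT control TA, then 42.1 and 33.6 under the skmNrip1-/- label. This was a log2 difference of 3.46 (adjusted p = 0.127 from limma). The lower one, Myl3, had 89.6, 124 and 285 FPKM, then 54.1 and 71.3. This was a log2 difference of -1.24 (adjusted p = 0.359 from limma). Neither was called. The part of blood or fiber type in the values of the cascade was not tested.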

How the data were processed

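The authors quantified 150-bp paired-end reads with Salmon 1.10.2 on mm10, summarized transcripts to genes with tximport and deposited FPKM per gene and library. How the FPKM were computed and the annotation release are not given in the sources used here. The authors' deposited table also holds columns of their own DESeq2 comparison (log2 fold changes and adjusted p-values), which were not used. Groups came from sample titles. The study's text gives 3 mice per group, but the series holds only 2 libraries labelled skmNrip1-/-, and both were analysed here. No label ties a library to a mouse, so p-values measure the spread between these libraries, which may be partly technical.

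Differences were fitted with limma 3.58.1 in R 4.3.3 (lmFit, eBayes with trend) on log2(FPKM + 0.1) over all 5 libraries, keeping 12148 genes whose mean reached 0.5 FPKM, and p-values were adjusted by Benjamini-Hochberg. The pseudocount makes the changes of low genes smaller. The step was tested on simulated data whose changes were larger than those of any member. That test does not measure the power to find changes as small as theirs. Intervals are 95% from limma. Positions and sequences are from GENCODE M21 (GRCm38), which holds 17008 of the 17015 gene IDs. Python 3.11.15, pandas 2.3.3, numpy 2.4.6 and matplotlib 3.10.9 were used.

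The members and lists were chosen with earlier results of these data known. Named genes were the members, Nrip1, Igf1r, Gsk3a, the genes of each list at an unadjusted p of 0.05 or less without overlap or with the largest and smallest change, and the 3 nearest profiles of 3 members. Values of some genes of the lists are not reported here. Alternatives were other pseudocounts, minimums, scalings, variance models and thresholds, a replicate block, and leaving out each library.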

Additional observations from a re-analysis of the deposited data

How the results depend on the processing

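No member was called under any alternative tried, and Akt1, Grb10, Gsk3b, Insr, Irs1 and Pik3r1 kept their direction in all 14. Rescaling to TPM gave 29 genes called higher and 59 lower over the whole table, 4 members and 28 list genes lower at an unadjusted p of 0.05 or less (29.1% of all tested genes) and 1 gene of the lists called lower, Ddit4. It turned Irs2 to -0.10, Igf1r to -0.24 and Inpp4b to -0.0040. Without the variance trend, 22 genes were called higher and 3 lower, and with the adjusted p threshold at 0.01, 14 and 3. With the replicate block, 18 were called higher and 4 lower, and 1 member, Pik3r1, was higher at an unadjusted p of 0.05 or less. The call of Nrip1 was lost without the trend (adjusted p = 0.0769) and with the replicate block (adjusted p = 0.128). The replicate numbers were not taken as pairs, since only 2 numbers are shared and deviations correlated at 0.065 and 0.095 across genes, which are not independent replicates.

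With each library left out in turn, the genes called higher ranged from 6 to 55 and those called lower from 3 to 16, against 45 and 10 with all libraries. Members at an unadjusted p of 0.05 or less ranged from 0 to 1 in each direction (Insr without WT control replicate 2, Pik3r1 without replicate 1 labelled skmNrip1-/-, and Irs1 without WT control replicate 1), and list genes called higher from 0 to 2 (Grb14 and Tbc1d4 without WT control replicate 2). The sign turned within the ranges of Irs2 (-0.012 to 0.38), Akt2 (-0.046 to 0.019), Pik3ca (-0.24 to 0.075), Igf1r (-0.0021 to 0.087), Slc2a4 (-0.15 to 0.0398) and the log2 ratio of Gsk3b to Gsk3a (-0.053 to 0.18). Where a group was left with 1 library, it was assumed to vary like the other group. The causes were not tested. With 2 libraries in 1 group the intervals are wide, and differences inside them were not excluded for the members.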
